A study of Mus musculus with 6 samples.

Results

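The T cell receptor carries no enzyme of its own. When it binds a peptide, the Src-family kinase Lck phosphorylates tyrosines in the tails of the CD3 chains, the kinase Zap70 docks on them, and Zap70 phosphorylates the adaptors Lat and Lcp2 (SLP-76), which gather the enzymes of calcium, Ras and NF-kappaB signalling. Ptprc (CD45) is the membrane phosphatase that keeps Lck ready to act. Lck is held in the membrane by lipid anchors. Regulatory T cells (Tregs) are suppressive CD4 cells that express Foxp3, and they depend on this receptor. The transcripts of these genes are described here in Tregs with a deletion of Srebf2, whose product SREBP2 switches on the genes of cholesterol synthesis and uptake.

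The genes were taken by symbol from the table of raw counts, and all 9 were found among its 24421 genes: the CD3 chains Cd3e, Cd3d, Cd3g and Cd247, the kinases Lck and Zap70, the adaptors Lat and Lcp2, and Ptprc. All 9 also passed the filter on low counts that left 11932 tested genes, and the lowest value of any of them in any library was 2103 counts. Tregs came from spleen and lymph nodes of mice. The 3 Srebp2cKO libraries (replicates 6, 7 and 8) have the genotype Srebp2FL/FL-Foxp3YFPCRE+/-, and the 3 Srebp2WT libraries (replicates 1, 3 and 5) the genotype Srebp2WT/WT-Foxp3YFPCRE+/+. Both genotypes thus carry a Cre recombinase with yellow fluorescent protein at Foxp3, at a different dose, and that difference cannot be told apart from the Srebf2 genotype. Foxp3 is X-linked, so animals with 1 Cre allele can hold Tregs without an active Cre, and the labels give neither the sort gate nor the animals' ages. Separate animals are not stated for the 3 libraries of either genotype, so p-values refer to the variation among these libraries, which could be technical.

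Srebf2 had 187, 197 and 183 counts in the Srebp2cKO libraries, against 3043, 2980 and 2548 in the Srebp2WT libraries (log2 fold change -3.91, edgeR adjusted p = 1.5e-08). Library totals ranged from 13918321 to 17249898 counts. Foxp3, Cd4 and Il2ra were abundant in every library. Markers of other cells ranged from 0 counts in every library (Ncr1, Fcgr1, S100a8) and at most 2 (Ms4a1) upward. Others reached 137 (Cd8b1), 769 (Cd74), 1299 (Cybb) and 3721 (Pecam1, a stromal marker that T cells also express). The sums of these markers by genotype are given at the end. In the comparisons below, CPM of single genes are read counts scaled to library size after correction by trimmed mean of M values (TMM). Summed CPM of markers are scaled to library totals without that correction. A log2 fold change is Srebp2cKO over Srebp2WT. A gene was called at an edgeR quasi-likelihood adjusted p below 0.05, adjusted over all 11932 genes.

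Of the 9 genes, 1 fell and 0 rose in Srebp2cKO Tregs. Zap70 fell to 73.0% of its Srebp2WT level, and the 8 others were not called. Their log2 fold changes lay between -0.09 (Cd3e) and 0.27 (Ptprc). Across all tested genes 6.61% were called, 4.24% lower and 2.37% higher, so 1 call in 9 genes is near the background. The median log2 fold change of the 9 genes was 0.03, beside -0.00015 over all tested genes. At an unadjusted edgeR p below 0.05 there were 4 of the 9 genes, against 29.1% of all genes. The libraries of the genotypes did not overlap for 4 of the 9 genes, against 31.5% of all genes: Cd247 and Lat were higher in every Srebp2cKO library (16% of all genes were) and Cd3e and Zap70 lower (15.5%). In sorted bulk cells, fewer cells that express a gene and less of its RNA per cell cannot be told apart.

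**Figure D1:**
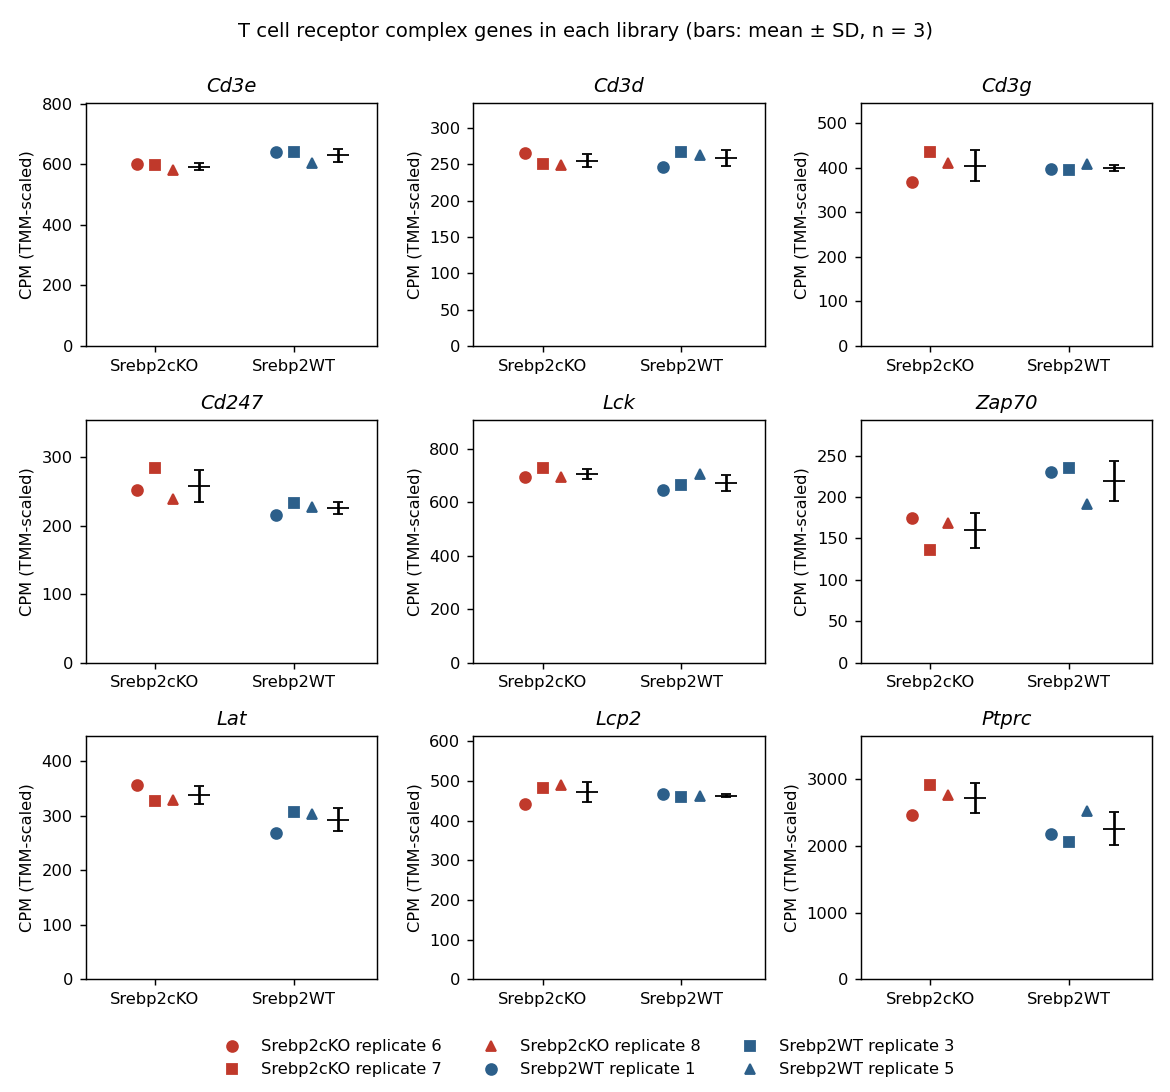
TMM-scaled CPM (vertical axes, from 0) of the 9 genes in each library, Srebp2cKO left and Srebp2WT right, with 1 symbol per library and mean ± SD (n = 3) beside them. Zap70 lay between 136 and 175 CPM in Srebp2cKO and between 191 and 235 CPM in Srebp2WT, while the libraries overlapped for Cd3d, Cd3g, Lck, Lcp2 and Ptprc.

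Zap70, the kinase that binds the phosphorylated CD3 chains, lies on chromosome 1 from 36761798 to 36782818 (GRCm38, plus strand). It had 175, 136 and 169 CPM in Srebp2cKO replicates 6, 7 and 8, against 231, 235 and 191 CPM in Srebp2WT replicates 1, 3 and 5. All 3 Srebp2cKO libraries lay below all 3 Srebp2WT libraries, and Srebp2WT replicate 5 was the closest to them. The means were 160 ± 21.1 CPM in Srebp2cKO and 219 ± 24.1 CPM in Srebp2WT (SD, n = 3 each). Zap70 thus had a log2 fold change of -0.45 with an SE of 0.11 and a 95% interval of -0.70 to -0.21 (edgeR adjusted p = 0.0408). DESeq2, which called 6.52% of genes lower, made this call too (adjusted p = 0.00296), as did limma-voom, which called 4.23% lower (adjusted p = 0.0412). It was not made without Srebp2WT replicate 1 (log2 fold change -0.41, adjusted p = 0.157), Srebp2WT replicate 3 (-0.40, 0.155), Srebp2cKO replicate 7 (-0.35, 0.0926) or Srebp2cKO replicate 8 (-0.50, 0.0691).

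Fold changes in these libraries moved with the GC content of transcripts. When genes were cut by GC content into 10 equal bins, the bin with the highest GC content had a median log2 fold change of -0.26 with 111 lower and 4 higher calls among 1146 genes, and the bin with the lowest had 0.23 with 8 lower and 82 higher calls. Zap70 has the most GC-rich transcript of the 9 genes (59.6%) and lies in the highest bin, 0.19 below its median on the log2 scale. The slope of log2 CPM on GC was steepest downward in Srebp2cKO replicate 7, which also had the lowest Zap70. Per 10% of GC, relative to the mean of all libraries, slopes were 0.011, -0.245 and -0.116 in Srebp2cKO replicates 6, 7 and 8. They were 0.151, 0.178 and 0.022 in Srebp2WT replicates 1, 3 and 5. The genotypes did not overlap, though Srebp2cKO replicate 6 and Srebp2WT replicate 5 were close. Whether removing the trend also removes a difference between genotypes was not tested. With the GC trend removed from each library, Zap70 had a log2 fold change of -0.15 (SE 0.07) and was not called (edgeR adjusted p = 0.191), nor was it in any of the 6 fits that also left out 1 library. In that corrected fit 6.73% of 11459 genes were called, 3.5% lower and 3.23% higher.

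**Figure D2:**
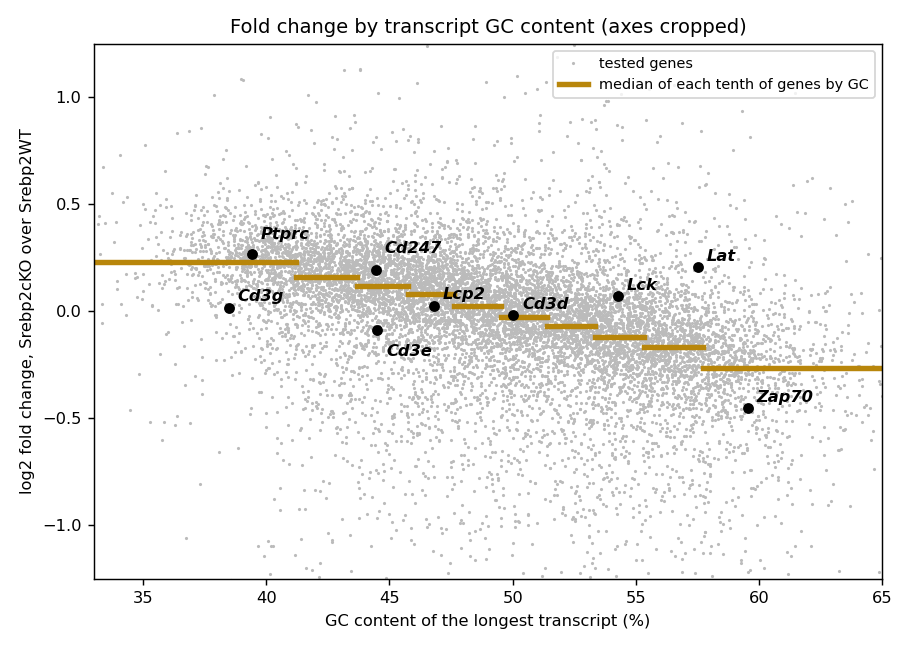
Log2 fold change, Srebp2cKO over Srebp2WT (vertical axis), against GC content of the longest transcript in percent (horizontal axis) for tested genes (grey), with the median of each of 10 GC bins (gold) and the 9 genes named (black). Medians run from 0.23 at the lowest GC to -0.26 at the highest; Zap70 lies 0.19 below its bin's median and Lat 0.37 above its own.

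Lat, the membrane adaptor that Zap70 phosphorylates, has a GC content close to that of Zap70 (57.5%) and did not share its direction. It lies on chromosome 7 from 126363824 to 126369570 (minus strand). Srebp2cKO replicates 6, 7 and 8 had 357, 328 and 330 CPM of Lat, against 269, 307 and 304 CPM in Srebp2WT replicates 1, 3 and 5. All 3 Srebp2cKO libraries were above all 3 Srebp2WT libraries, replicate 6 the highest and Srebp2WT replicate 1 the lowest. Lat was not called, with a log2 fold change of 0.21, an SE of 0.08 and a 95% interval of 0.03 to 0.38 (edgeR adjusted p = 0.124). With the GC trend removed it was 0.45 (SE 0.09) and called higher (edgeR adjusted p = 0.0147). That corrected call held in 5 of 6 fits that left out 1 library and was lost without Srebp2WT replicate 3 (0.45, adjusted p = 0.0670).

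**Figure D3:**
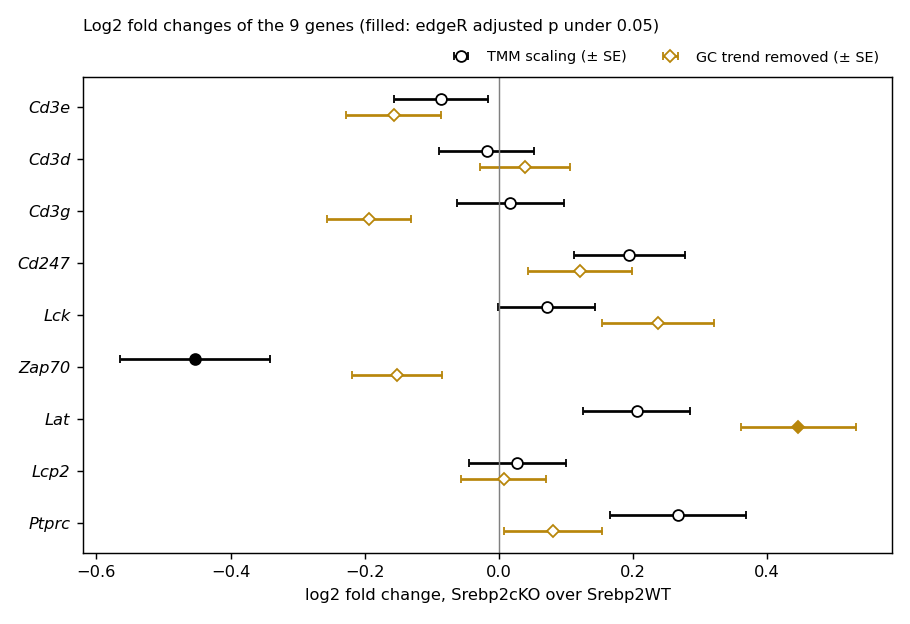
Log2 fold change with its SE (horizontal axis) of the 9 genes, with TMM scaling (black circles) and with the GC trend removed (gold diamonds); filled symbols have an edgeR adjusted p below 0.05. Zap70 was called at -0.45 with TMM scaling alone, and Lat at 0.45 with the GC trend removed alone.

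Counts of 2 genes within a library can be compared without any scaling, and these ratios were chosen after the values were seen. Such ratios keep the GC trend where the genes differ in GC content, here 59.6% for Zap70, 57.5% for Lat and 54.3% for Lck. Srebp2cKO libraries had 48.9, 41.4 and 51.3 Zap70 counts per 100 Lat counts, against 85.7, 76.4 and 62.9 in Srebp2WT libraries. Zap70 was lower and Lat higher in every Srebp2cKO library, so this ratio had to separate the genotypes and is given without a test. Per 100 Lck counts, Zap70 had 25.1, 18.7 and 24.3 in Srebp2cKO and 35.8, 35.3 and 27.1 in Srebp2WT (exact permutation p = 0.1). The genotypes did not overlap in either ratio, and Srebp2WT replicate 5 was the Srebp2WT library closest to Srebp2cKO in both. Lat per 100 Lck counts was 51.4, 45.1 and 47.4 in Srebp2cKO and 41.8, 46.1 and 43.1 in Srebp2WT, which overlapped (exact permutation p = 0.2).

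**Figure D4:**
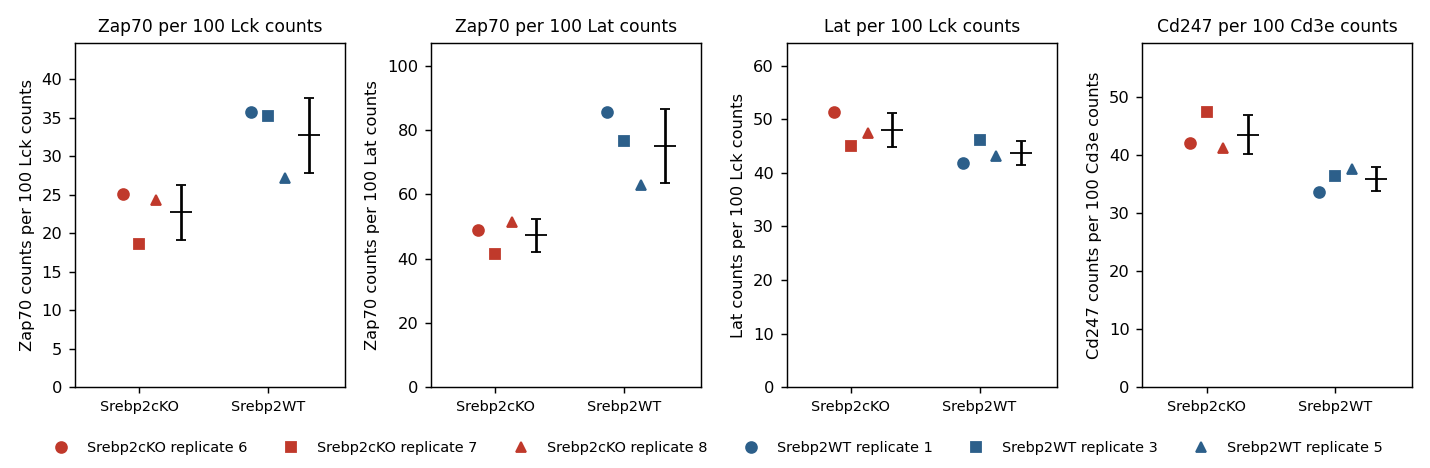
Counts of 1 gene per 100 counts of another in the same library (vertical axes, from 0), Srebp2cKO left and Srebp2WT right, with mean ± SD (n = 3). Zap70 per 100 Lat counts was 41.4 to 51.3 in Srebp2cKO and 62.9 to 85.7 in Srebp2WT, and Cd247 per 100 Cd3e counts was 41.1 to 47.4 in Srebp2cKO and 33.6 to 37.5 in Srebp2WT.

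The promoter windows of Zap70, Lat and Cd3e are shown because the deleted protein is a transcription factor. Zap70 and Lat were the genes called with 1 of the 2 fits, without and with the GC correction, and Cd3e is a chain of the receptor that was called with neither. Each runs from 250 bases before to 50 bases after the start site (RefSeq, GRCm38.p6), at chr1:36761548-36761847 (plus strand), chr7:126369519-126369818 (minus strand) and chr9:45009562-45009861 (minus strand). Capitals mark matches to the motifs searched on both strands.
Zap70: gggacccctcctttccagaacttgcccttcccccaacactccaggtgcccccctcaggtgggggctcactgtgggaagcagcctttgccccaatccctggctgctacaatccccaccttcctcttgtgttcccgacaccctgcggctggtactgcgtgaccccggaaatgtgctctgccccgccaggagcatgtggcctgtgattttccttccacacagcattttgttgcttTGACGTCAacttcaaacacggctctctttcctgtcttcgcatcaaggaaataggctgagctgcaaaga
Lat: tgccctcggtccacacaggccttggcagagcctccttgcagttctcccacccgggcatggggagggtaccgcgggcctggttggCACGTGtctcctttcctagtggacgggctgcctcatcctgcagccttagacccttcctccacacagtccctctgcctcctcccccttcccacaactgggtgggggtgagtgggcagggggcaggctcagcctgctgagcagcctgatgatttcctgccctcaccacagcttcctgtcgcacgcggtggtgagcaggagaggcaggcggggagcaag
Cd3e: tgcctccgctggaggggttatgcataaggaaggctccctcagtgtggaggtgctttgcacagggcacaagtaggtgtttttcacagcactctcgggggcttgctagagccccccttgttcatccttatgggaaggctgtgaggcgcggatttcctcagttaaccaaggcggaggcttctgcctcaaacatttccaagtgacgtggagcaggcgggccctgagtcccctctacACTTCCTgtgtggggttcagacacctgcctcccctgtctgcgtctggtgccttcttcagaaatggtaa
The motifs were the sterol regulatory element SRE-1, to which SREBP proteins bind, its core TCACNCCAC, the E-box CACGTG, the ETS motif AGGAAGT and the cyclic AMP response element TGACGTCA. Windows of all 9 genes were found. Where a gene had several (3 for Zap70, 2 each for Lck and Ptprc), only the window nearest the annotated gene start was read. None of the 9 windows read held SRE-1 or its core, which 0.0851% and 1.22% of 27025 promoter windows hold. In the windows shown, Zap70 holds TGACGTCA (1.88% of windows), Lat holds CACGTG (7.24%) and Cd3e holds AGGAAGT on the opposite strand (9.57%), with no overlap between motifs. Cd3d, Cd247, Lck and Ptprc also hold AGGAAGT. These are matches of letters, and no match says only that these letters are not in the window.

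The CD3 chains form the signalling part of the receptor. Cd3e, which pairs with both Cd3d and Cd3g, had 600, 598 and 581 CPM in Srebp2cKO replicates 6, 7 and 8, against 642, 643 and 605 CPM in Srebp2WT replicates 1, 3 and 5. Every Srebp2cKO library was below every Srebp2WT library, by little: the log2 fold change was -0.09 (SE 0.07, edgeR adjusted p = 0.434). Cd3d had 266, 251 and 249 CPM in Srebp2cKO and 246, 268 and 262 CPM in Srebp2WT. Cd3g had 368, 436 and 410 CPM in Srebp2cKO and 396, 395 and 408 CPM in Srebp2WT. The genotypes overlapped for both Cd3d and Cd3g. Neither was called (log2 fold change -0.02, edgeR adjusted p = 0.888 for Cd3d, and 0.02, adjusted p = 0.907 for Cd3g). As percent change from Srebp2WT, the 95% intervals ran from -15.4% to 4.86% for Cd3e, from -11.5% to 10.2% for Cd3d and from -10.5% to 14.4% for Cd3g. With the GC trend removed, Cd3g had -0.19 and was not called (edgeR adjusted p = 0.0916). Cd3e, Cd3d and Cd3g sit beside each other on chromosome 9 between 44969572 and 45009627.

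Cd247 encodes the zeta chain, which carries the most phosphorylation motifs of the complex and joins it last. It lies on chromosome 1 from 165788681 to 165877277 (plus strand). Cd247 had 252, 284 and 239 CPM in Srebp2cKO replicates 6, 7 and 8, against 216, 234 and 227 CPM in Srebp2WT replicates 1, 3 and 5. The genotypes did not overlap, though Srebp2cKO replicate 8 and Srebp2WT replicate 3 were close. The log2 fold change was 0.19 (SE 0.08, edgeR adjusted p = 0.150), and 0.12 with the GC trend removed (adjusted p = 0.364). Of the 5329 exon bases of Cd247, 3007 are shared with Pou2f1 on the other strand. Without a stated strand setting for the counting, reads of the 2 genes cannot be told apart. Pou2f1 had 132 ± 9.15 CPM in Srebp2cKO and 118 ± 1.29 CPM in Srebp2WT (SD, n = 3 each; edgeR adjusted p = 0.195). Its part in the Cd247 values was not tested.

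Levels of different genes can be compared only per length, here as TPM, which divide each count by the exon length of its gene and then scale every library to the same total. Summed over the CD3 chains, TPM were 1884, 1935 and 1859 in Srebp2cKO and 2051, 2031 and 1956 in Srebp2WT. The Srebp2cKO sums were all below the Srebp2WT sums (exact permutation p = 0.1, the smallest possible). The log2 ratio of their means was -0.089, and TPM carry no TMM correction. Lck averaged 995 TPM in Srebp2cKO and 999.6 TPM in Srebp2WT, but its log2 fold change with TMM scaling was 0.07. In TMM-scaled CPM, only Cd3e was lower in every Srebp2cKO library. Cd3d and Cd3g overlapped, and Cd247 was higher. Cd247 was the scarcest chain in every library, with 10.4%, 11.3% and 9.95% of the summed TPM in Srebp2cKO and 8.91%, 9.33% and 9.25% in Srebp2WT (exact permutation p = 0.1). The shares of Cd3e (31.7% ± 0.685 and 33.5% ± 1.20), Cd3d (30.7% ± 1.51 and 30.9% ± 0.930) and Cd3g (27.0% ± 1.91 and 26.5% ± 0.701) overlapped between Srebp2cKO and Srebp2WT (mean ± SD, n = 3 each, Srebp2cKO given before Srebp2WT; exact permutation p = 0.2, 1 and 0.7). Per 100 Cd3e counts there were 41.9, 47.4 and 41.1 Cd247 counts in Srebp2cKO and 33.6, 36.3 and 37.5 in Srebp2WT. This ratio had to separate the genotypes, since Cd247 was higher and Cd3e lower in every Srebp2cKO library, and is given without a test.

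Over all 9 genes and with the summed exon length, Lck had the highest TPM and Cd247 the lowest in both genotypes. In Srebp2cKO the order was Lck (995 ± 20.9 TPM), Ptprc (612 ± 47.3), Cd3e (601 ± 11.8), Cd3d (581 ± 23.9), Cd3g (511 ± 40.7), Lat (505 ± 27.4), Lcp2 (437 ± 21.6), Zap70 (221 ± 30.3) and Cd247 (199.9 ± 17.0; SD, n = 3). In Srebp2WT it was Lck (999.6 ± 21.1 TPM), Cd3e (674 ± 40.4), Cd3d (621 ± 14.5), Ptprc (537 ± 51.3), Cd3g (534 ± 12.4), Lat (462 ± 20.9), Lcp2 (453 ± 17.2), Zap70 (320 ± 41.7) and Cd247 (184 ± 4.47; SD, n = 3). By their library values, the neighbours Ptprc with Cd3e, Cd3e with Cd3d, Cd3g with Lat and Zap70 with Cd247 overlapped in Srebp2cKO. In Srebp2WT, Cd3e with Cd3d, Ptprc with Cd3g and Lat with Lcp2 overlapped. The order rests on the length used. With the longest transcript, Zap70 was lowest in Srebp2cKO (223 ± 31.3 TPM), below Cd247 (272 ± 22.4 TPM), while in Srebp2WT Cd247 was still lowest. For Ptprc, the annotated exons add up to 18313 bases and the longest transcript to 5740, and with 5740 bases Ptprc had the highest level (1477 ± 110 TPM in Srebp2cKO and 1304 ± 122 TPM in Srebp2WT).

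Lck, the kinase that starts the cascade, had 694, 727 and 695 CPM in Srebp2cKO replicates 6, 7 and 8, against 644, 666 and 705 CPM in Srebp2WT replicates 1, 3 and 5. Srebp2WT replicate 5 lay among the Srebp2cKO libraries. The log2 fold change was 0.07 (SE 0.07, edgeR adjusted p = 0.536), with a 95% interval of -6.00% to 17.5% as percent change. Lck is GC-rich (54.3%), and with the GC trend removed it had 0.24 without being called (edgeR adjusted p = 0.115).

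Ptprc, the phosphatase, had 2468, 2914 and 2760 CPM in Srebp2cKO replicates 6, 7 and 8, against 2182, 2053 and 2528 CPM in Srebp2WT replicates 1, 3 and 5. The genotypes overlapped, since Srebp2WT replicate 5 exceeded Srebp2cKO replicate 6. The log2 fold change was 0.27 (SE 0.10, edgeR adjusted p = 0.119). Its transcript is among the poorest in GC (39.4%), in the bin of genes whose median was 0.23, and with the GC trend removed it had 0.08 (adjusted p = 0.537). Counts per gene do not separate the splice forms of Ptprc that mark T cell states.

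Lcp2, the cytosolic adaptor that binds to Lat through Grap2, had 443, 481 and 491 CPM in Srebp2cKO replicates 6, 7 and 8, against 467, 459 and 462 CPM in Srebp2WT replicates 1, 3 and 5. The genotypes overlapped, with the Srebp2WT values inside the range of Srebp2cKO. Its log2 fold change was 0.03 (SE 0.07, edgeR adjusted p = 0.829), with a 95% interval of -8.76% to 13.9% as percent change.

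The neighbours of each gene were counted as 20 tested genes on its chromosome, equally many on each side in order of position. This description was chosen after values were seen, and the genes counted are not always the nearest by distance. Over all tested genes 6.61% were called. Zap70 and Cd247 had 0 called neighbours. The adjoining Cd3e, Cd3d and Cd3g shared 1, Phldb1 (lower), Ptprc had 1, Zfp281 (higher), and Lcp2 had 2, Nsg2 and Npm1 (both higher). Lat had 3, all lower: Sh2b1 (log2 fold change -0.32, 97.4 kb away), Cln3 (-2.07, 202 kb away) and Apobr (-5.43, 215 kb away). Gdpd3, 397 kb away and outside the 20 genes counted, rose (5.51). Lat itself, with 0.21, had neither the size nor the direction of Cln3 and Apobr. Lck had 4 called neighbours, 3 lower and 1 higher, among them Marcksl1 (-0.69, 32.4 kb away).

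Other genes of receptor signalling were read from 4 lists, against the background of 2.37% of tested genes called higher and 4.24% called lower. Of 7 tested co-receptors and surface partners, 1 rose and 0 fell (median log2 fold change -0.00). It was Cd28, the costimulatory receptor, with 508, 557 and 561 CPM in Srebp2cKO replicates 6, 7 and 8, against 362, 401 and 447 CPM in Srebp2WT replicates 1, 3 and 5 (log2 fold change 0.43, SE 0.09, edgeR adjusted p = 0.0257). The receptor constant genes of that list were not analysed here. Cd4, which brings Lck to the receptor, stood at 491 CPM in Srebp2cKO and 493 CPM in Srebp2WT. Of 10 other proximal kinases, 1 rose and 0 fell (median -0.01): Txk, a Tec-family kinase, had 79.5, 74.1 and 69.9 CPM in Srebp2cKO and 48.8, 54.9 and 55.4 CPM in Srebp2WT (log2 fold change 0.49, SE 0.09, edgeR adjusted p = 0.0130). Both genes had libraries that did not overlap, and both kept their calls with the GC trend removed (edgeR adjusted p = 0.0448 for Cd28 and 0.0162 for Txk).

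Of 25 tested negative regulators, 1 rose and 1 fell (median -0.05). Pag1, the membrane adaptor that recruits the Lck inhibitor Csk, averaged 209.6 ± 7.19 CPM in Srebp2cKO and 171 ± 11.6 CPM in Srebp2WT (SD, n = 3 each; log2 fold change 0.29, edgeR adjusted p = 0.0475). Its call was lost with upper-quartile scaling (0.27, edgeR adjusted p = 0.0505) and total-count scaling (0.26, adjusted p = 0.0623). Sh2d1a, the adaptor SAP of SLAM receptors, which can also aid signalling, averaged 36.9 ± 4.19 CPM in Srebp2cKO and 53.1 ± 1.05 CPM in Srebp2WT (SD, n = 3 each; log2 fold change -0.52, edgeR adjusted p = 0.0161). Its transcript is poor in GC (36.9%), and with the GC trend removed it had -0.76 (edgeR adjusted p = 4.2e-04). Csk itself had a log2 fold change of -0.07 and was not called (edgeR adjusted p = 0.528).

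Of 37 downstream adaptors and enzymes, 3 rose and 3 fell (16.2% called, against 6.61% of all tested genes; median 0.04). Grap2, the adaptor that links Lcp2 to Lat, averaged 513 ± 19.0 CPM in Srebp2cKO and 398 ± 20.5 CPM in Srebp2WT (SD, n = 3 each; log2 fold change 0.36, edgeR adjusted p = 0.0222). Rasgrp1, the Ras activator that responds to diacylglycerol (0.30), and Pik3r1, the regulatory subunit of PI3 kinase (0.38), also rose. The call of Rasgrp1 was lost with total-count scaling (0.27, edgeR adjusted p = 0.0508). The transcription factors of calcium signalling Nfatc1 (-0.55) and Nfatc2 (-0.31) and the calcium channel Orai1 (-0.42) fell. Nfatc1 averaged 252 ± 9.21 CPM in Srebp2cKO and 369 ± 54.5 CPM in Srebp2WT (SD, n = 3 each; edgeR adjusted p = 0.0177). With the GC trend removed, Grap2, Rasgrp1 and Nfatc1 kept their calls, while Orai1 (-0.13, edgeR adjusted p = 0.431), Nfatc2 (-0.13, 0.219) and Pik3r1 (0.33, 0.0683) lost them. Each of these 10 named genes of the 4 lists lost its call in 2 to 5 of the 6 fits that left out 1 library.

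**Figure D5:**
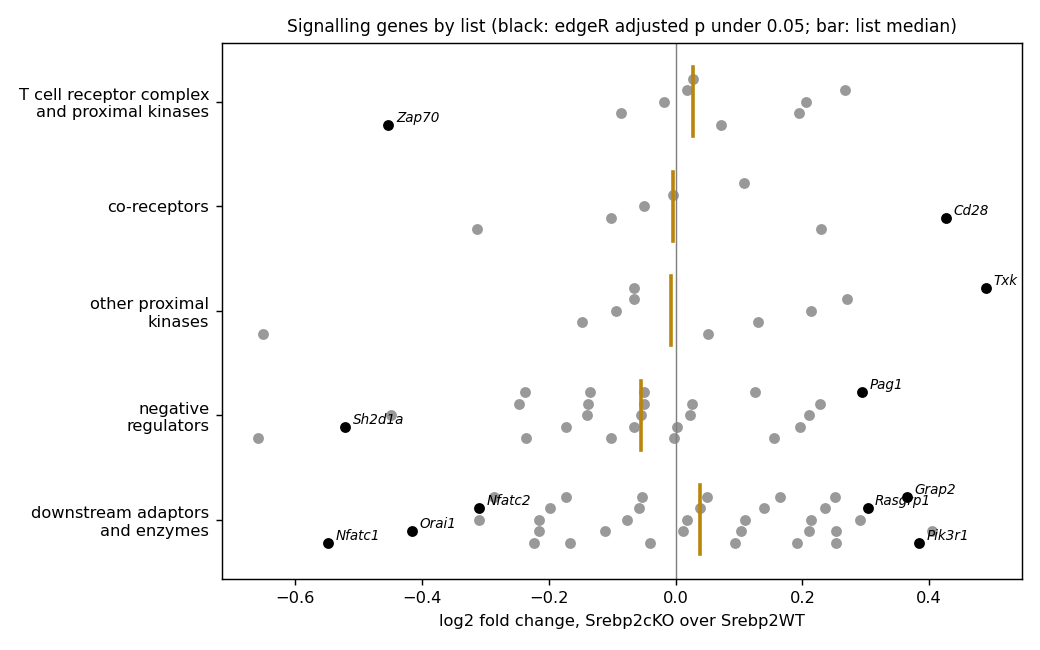
Log2 fold change, Srebp2cKO over Srebp2WT (horizontal axis), of each tested gene in the 9-gene receptor set and in 4 lists of signalling genes; 1 point is 1 gene, vertical offsets only separate points, black points have an edgeR adjusted p below 0.05 and gold bars are list medians. The list medians lie between -0.05 and 0.04, with called genes on both sides in the lists of negative regulators and downstream genes.

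Markers of other cells were measured beside these genes, with sums in CPM of library totals that carry no TMM correction. Of 8 B cell markers, 4 passed the filter on low counts, and the summed CPM of all 8, most of it Cd74, was 25.8 to 34.6 in Srebp2cKO and 56.5 to 79.7 in Srebp2WT. Of 8 myeloid markers, 2 passed, and the sum of all 8, most of it Cybb, was 33.1 to 39.4 CPM in Srebp2cKO and 50.6 to 85.0 CPM in Srebp2WT. Those B cell and myeloid sums did not overlap between genotypes (exact permutation p = 0.1 for each, the smallest possible). Both sums were lower in Srebp2cKO, as Zap70 was, and their part in the results was not tested. Summed CD8 markers were 8.70 to 10.3 CPM in Srebp2cKO and 7.01 to 7.59 CPM in Srebp2WT, higher without overlap (exact permutation p = 0.1). Summed NK cell markers overlapped (4.06 to 7.61 CPM in Srebp2cKO and 4.77 to 6.05 CPM in Srebp2WT). Stromal markers summed to 217 to 231 CPM in Srebp2cKO and 168 to 181 CPM in Srebp2WT, also higher without overlap (exact permutation p = 0.1). Nearly all of that sum was Pecam1, which T cells also express. Erythroid and platelet markers summed to 0 to 0.696 CPM in Srebp2cKO and 0.136 to 0.257 CPM in Srebp2WT, and the gamma delta T cell marker found in the table, Sox13, had at most 3 counts. Markers of Tregs and CD4 T cells, a list that holds Cd3e, summed to 4037 to 4192 CPM in Srebp2cKO and 4115 to 4335 CPM in Srebp2WT, which overlapped (exact permutation p = 0.2). That sum holds markers that moved in opposite directions. Unscaled Il2ra counts were 12555, 13896 and 16132 in Srebp2cKO and 11174, 10531 and 10266 in Srebp2WT. For Ikzf2 they were 17373, 20463 and 23696 in Srebp2cKO and 25889, 23503 and 24167 in Srebp2WT. In TMM-scaled CPM, Ctla4 was higher and Cd3e lower in every Srebp2cKO library, while Foxp3 and Cd4 overlapped.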

How the data were processed

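Treg RNA, isolated by RNeasy, went into ribosome-depleted KAPA libraries, per the labels' protocols. What the authors deposited is 1 table of raw counts per gene symbol. The submitters' processing notes name HISAT2 2.2.1, Cell Ranger and the mouse build mm10, with no roles. No source used here gives the counter, its annotation or its strand setting, which leaves counts of overlapping genes uncertain.

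Columns were matched by sample title. No pair of replicates was alike within counting error (chi-square over its degrees of freedom 6.71 to 34.8), so each counted once. Genes were kept by filterByExpr, scaled by TMM and fitted in edgeR 4.0.16 (R 4.3.3), whose quasi-likelihood test gave p-values (all 6 libraries, no covariate, Benjamini-Hochberg over 11932 genes). DESeq2 1.42.0, limma 3.58.1 voom, other scalings and filters, a false discovery rate of 0.1 and leaving out each library were alternatives. For the GC correction, each library's log2 CPM was smoothed on the GC content of the longest transcript (loess, span 0.3) and the curve entered the fit as an offset. Gene models came from GENCODE M21 on GRCm38, which matched 23376 of 24421 genes. The fits were tested on simulated data that held no GC trend, so removal of such a trend was not tested. TPM were computed from counts and exon length.

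The 9 genes and the lists were chosen with earlier results of these data known. The motif TCACNCCAC was added after the others had been searched. The named genes are those 9, Srebf2 and, of each list, up to 6 called genes with the smallest p. Cd4, Csk, Pou2f1 and the neighbours of the 9 genes were named after their values were seen. Depth was 13918321 to 17249898 counts per library, and their counts were high enough that the spread between libraries, not counting, limits them.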

Additional observations from a re-analysis of the deposited data

How the results depend on the processing

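The call of Zap70 held under 3 other scalings (RLE, upper-quartile, total counts), 2 other tools, robust dispersion, no filter and a filter of 1 CPM in 3 libraries (log2 fold changes -0.49 to -0.45). It was lost with the GC correction (-0.15), which left 0 genes of the 9 lower and 1 higher (Lat, 0.45). Without that correction, the fits that left out 1 library called 0 to 1 of the 9 genes lower and 0 higher. With it, they called 0 lower and 0 to 1 higher. Combining the correction with a left-out library was chosen after seeing the data. Over these fits Zap70 ranged from -0.545 to -0.113, Lat from 0.149 to 0.527, Cd3d from -0.0518 to 0.0672, Cd3g from -0.223 to 0.0835 and Lcp2 from -0.0127 to 0.0726. Cd3d, Cd3g and Lcp2 changed sign without being called: Cd3d had 0.0390 with the GC correction, Cd3g -0.00715 with upper-quartile scaling, -0.0158 with total counts and -0.194 with the GC correction, and Lcp2 -0.00586 with total counts.

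Of all tested genes 789 were called, 1404 with DESeq2, 1205 with no filter, 1893 at a false discovery rate of 0.1 and 167 to 1487 when 1 library was left out. With total counts 184 were higher and 570 lower, against 283 and 506, and with the GC correction 370 and 401. The difference in summed markers depended on single libraries for NK cells (-0.488 to 1.29 CPM), gamma delta T cells (-0.0968 to 0 CPM) and erythroid cells and platelets (-0.164 to 0.184 CPM). Except where the setting itself leaves out samples or genes, the cause of a change was not tested. No paired analysis was possible because the genotypes share no replicate numbers.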

Other observations

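By a rule set for the profile over libraries, the genes outside all lists most like the 4 CD3 chains were D4Ertd617e, Rexo4, Aplf, Wrnip1 and Zfyve19. The measure was Pearson's r of log2 CPM with the mean standardized profile of Cd3e, Cd3d, Cd3g and Cd247, and it lay between 0.97 and 0.98 over 6 libraries that share their depth and GC trends. None of the 5 was called (edgeR adjusted p of 0.908 to 0.990). The CD3 profile itself was highest in Srebp2cKO replicate 7 and Srebp2WT replicate 3 and lowest in Srebp2cKO replicate 8 and Srebp2WT replicate 1. The 4 chains did not share 1 pattern (pairwise r of -0.52 to 0.39 over the 6 libraries), so their mean does not describe each chain.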
